A study of Mus musculus with 6 samples.

Results

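This account covers 9 genes that put peptides on the cell surface with classical MHC class I molecules, read in 6 whole tumours of a mouse melanoma. The genes were taken by name from the 20938 in the deposited table. They are the heavy chains H2-K1 and H2-D1, the light chain B2m, the transactivator Nlrc5, the peptide transporter subunits Tap1 and Tap2, the loading factors Tapbp and Tapbpl, and the trimming peptidase Erap1. All 9 were found, none was at 0 in any library, and all 9 passed the filter on low values (at least 1 FPKM on average over the 6 libraries, where FPKM is the fragment count scaled to transcript length and library depth), as did 11241 genes in all.

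The tumours grew from B16F10 cells, a melanoma line of C57BL/6 mice, placed subcutaneously in the left hind leg of male C57BL/6 mice aged 6 weeks with 200 µL of saline, and were taken on day 19. There were 3 control libraries and 3 libraries labelled as tumours of YKL-40 overexpressing cells. YKL-40 is a secreted chitinase-like protein. The genotype label is WT in both groups, and the labels give neither the vector of the control cells nor the species of the YKL-40 sequence. Whether each library is a mouse of its own is not stated either, and p-values here speak only of the spread among these libraries.

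Class I molecules show fragments of a cell's own proteins to CD8 T cells. Peptides cut by the proteasome are carried into the endoplasmic reticulum by the Tap1-Tap2 transporter, trimmed by Erap1, and loaded with the help of tapasin (Tapbp) onto a heavy chain that is held together with B2m. Interferon gamma switches on most of these genes, and Nlrc5, which is itself induced, drives the heavy chains and B2m through a promoter module known as SXY. B16 melanoma cells are known for low surface class I that interferon gamma raises.

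The mouse gene of YKL-40, Chil1 in the table, does not check the labels here. It had 0.0644, 0 and 0.0242 FPKM in the 3 controls, and none of the YKL-40 libraries was above 0, and reads of a human or recoded sequence need not map to it. Below, YKL-40 library means a library with that label. FPKM sums ran from 468605 to 490955 per library. Read totals are unknown, and relative depths estimated from the values of rare genes ran from 0.946 to 1.34 of the first control. The melanocyte markers, a check of the labelled cell type, summed to 8570 to 10030 FPKM in controls, against 8577 to 10680 with YKL-40, led by Pmel.

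Of the 9 genes, 5 lie on chromosome 17 in the MHC region and 4 elsewhere (RefSeq positions, build mm10). H2-K1 spans chr17:33996012-34000619, Tapbp chr17:33919478-33929290, Tap1 chr17:34187556-34197225, Tap2 chr17:34204479-34216321 and H2-D1 chr17:35263094-35267497. B2m is at chr2:122147687-122153082, Nlrc5 at chr8:94434335-94527272, Tapbpl at chr6:125223927-125231860 and Erap1 at chr13:74639573-74693205.

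Promoter stretches of H2-K1, H2-D1 and B2m are shown because these genes make the class I molecule itself and carry the same paired elements. They come from RefSeq promoter windows of build mm10 (250 bases before to 50 after the start), which were found for 6 of the 9 genes. Capitals mark letters of a searched motif: the interferon-stimulated response element GAAANNGAAA, the NF-kB type site GGGNNNNNCC, TGACG, and the inverted CCAAT box ATTGG, each searched on both strands. The stretches are chr17:34000353-34000480 (minus strand), chr17:35262901-35263028 (plus strand) and chr2:122147542-122147644 (plus strand), printed 5′ to 3′ along the gene. For H2-K1 the window's transcript start is at 34000347, inside the span given above, which reaches to a start further upstream. The windows of H2-D1 and B2m use the starts given above.
H2-K1: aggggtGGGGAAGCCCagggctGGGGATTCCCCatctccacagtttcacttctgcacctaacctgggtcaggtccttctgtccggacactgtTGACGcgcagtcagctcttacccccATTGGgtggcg
H2-D1: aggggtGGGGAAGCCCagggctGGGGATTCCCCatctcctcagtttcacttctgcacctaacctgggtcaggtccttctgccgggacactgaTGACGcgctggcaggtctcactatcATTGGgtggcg
B2m: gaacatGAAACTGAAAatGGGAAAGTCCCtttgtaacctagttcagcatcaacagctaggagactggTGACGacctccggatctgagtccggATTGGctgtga

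The H2-K1 and H2-D1 stretches have the same length and the same base at 117 of 128 positions (91.4%). Both open with the same pair of NF-kB type sites, and in B2m a response element stands 2 bases before its NF-kB type site. In all 3, TGACG is followed by ATTGG with 20 bases between them. That spacing was noticed in these sequences, not chosen beforehand. It occurs, in either orientation, in 31 of 32851 promoter windows (0.0944%), from 27 genes. Of these genes 18 were tested, and the median change over the 18 was 0.04 on the log2 scale. Of the 18, 2 (H2-K1 and H2-D1) rose past the threshold given below, as did 0.365% of all tested genes. Both, like B2m, are on the list because the spacing was noticed in them. B2m and H2-M3 each had a change of 1.31 and did not pass. The single motifs are common: the NF-kB type site is in 50.8% of windows (overlapping matches counted once), ATTGG in 37.4% and TGACG in 20.8%. The response element is in 3.44%, and among the genes here it was found in B2m and Erap1. Only these exact letters were searched, so a window without a match, as for H2-K1 and H2-D1, may still hold a variant of the element. The gamma-activated site TTCNNNGAA, in 8.30% of windows, was found in none of the 6, which says only that these letters are not in these windows.

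For all 9 genes every YKL-40 library lay above every control, and 5 genes rose past the threshold: H2-K1, H2-D1, Tap1, Tap2 and Tapbp. The threshold was an adjusted p of 0.05 in limma, adjusted by the Benjamini-Hochberg method over all 11241 tested genes. Across those genes 0.365% rose past it. B2m, Nlrc5, Tapbpl and Erap1 did not pass, with adjusted p from 0.0845 to 0.0918. At an unadjusted p under 0.05 all 9 were higher, against 8.71% of the tested genes, and every YKL-40 library lay above every control for 10.3% of the tested genes. The genes were chosen with earlier results of these data known. Their median change was 1.64 on the log2 scale, beside -0.04 over all tested genes.

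These calls depended on single libraries. The count of 5 was 0 without control 1, without control 2 or without YKL-40 library 1, and 5 without any one of the other libraries. The count over all genes, 49 with all libraries, was 2, 0 and 4 in those 3 fits. The members' median change was then 1.77, 1.67 and 1.81, and the change of H2-K1, 2.40 with all libraries, was 2.45, 2.35 and 2.42. With the level of a skeletal muscle marker list as a covariate the count of members and that over all genes were 0, and the members' median change was 1.21. The sums of that list did not overlap between the groups, so its level and the group cannot be told apart.

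**Figure D1:**
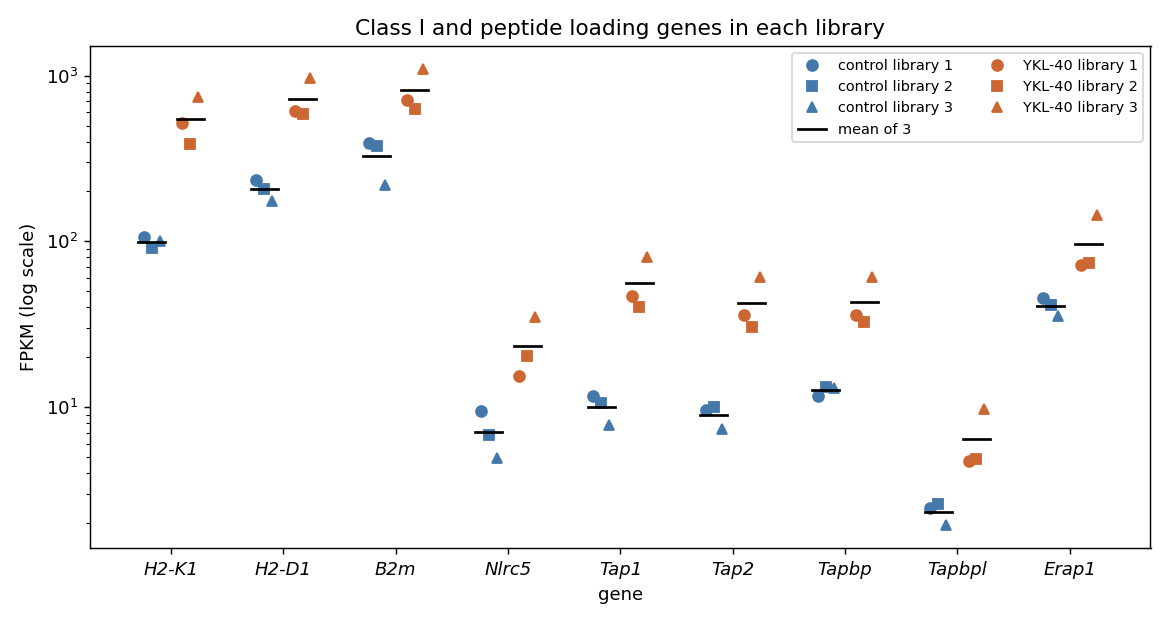
FPKM on a log axis of the 9 genes in each of the 6 libraries, with a bar at the mean of 3. Every YKL-40 point lies above every control point of the same gene, and YKL-40 library 3 is the highest for all 9.

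H2-K1, one of the 2 classical heavy chains of this strain, had 106, 91.5 and 101 FPKM in the controls, against 516, 386 and 743 with YKL-40. The groups were far apart, since the lowest YKL-40 library was 3.65 times the highest control. The means were 99.3 ± 7.26 and 548 ± 181 FPKM (SD, n = 3), and the change was 2.40 ± 0.22 on the log2 scale (SE, adjusted p = 0.0303). By p, it was the gene in place 2 of all tested genes.

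H2-D1, the other heavy chain, stood at 236, 207 and 175 FPKM in the controls, against 613, 588 and 966 with YKL-40. It stood above H2-K1 in all 6 libraries and rose by 1.78 ± 0.21 (adjusted p = 0.0303). Its means were 206 ± 30.7 and 723 ± 211 FPKM.

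B2m, the light chain shared by all class I molecules, was the most abundant of the 9 genes in all 6 libraries. It had 394, 374 and 219 FPKM in the controls, against 711, 630 and 1100 with YKL-40. Control 3 stood apart, at 0.569 times the mean of the other controls. The means were 329 ± 96.0 and 814 ± 251.3 FPKM, a change of 1.31 ± 0.28 that did not pass (adjusted p = 0.0881, 95% interval from 0.65 to 1.97).

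The heavy chains and B2m were therefore set against each other within each library. The ratio of H2-K1 to B2m was 0.269, 0.244 and 0.460 in the controls, against 0.725, 0.613 and 0.676 with YKL-40, so the groups did not overlap. On the log2 scale the ratio was higher by 1.10 in the YKL-40 libraries. H2-K1 to H2-D1 went from 0.448, 0.441 and 0.575 to 0.842, 0.656 and 0.769, higher by 0.63 on the log2 scale. For each of the 4 ratios tested here and below, the exact two-sided permutation p was 0.1 (adjusted over the 4, 0.1), the smallest that 3 against 3 libraries allow, so none could pass.

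H2-K1 and H2-D1 are close in sequence, which could move reads between them. Their coding sequences were identical at 985 of 1077 aligned bases (91.5%, GENCODE M21). Of the runs of 50 bases in the H2-K1 transcript, 8.79% also occur in transcripts of another gene, and of those in H2-D1 14.3% do. With runs of 100 bases these shares were 0% for H2-K1 and 4.64% for H2-D1, where most of the shared runs were in H2-Q1. Read length and the handling of reads that fit several genes are not given in the sources used here. For B2m, Nlrc5 and Erap1 the share was 0% at both lengths.

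Tap1 and Tap2, the partner subunits of the peptide transporter, had nearly equal levels and rose together. Tap1 had 11.7, 10.6 and 7.75 FPKM in the controls, against 47.0, 40.1 and 80.8 with YKL-40, a change of 2.32 ± 0.26 (adjusted p = 0.0303). Tap2 had 9.64, 10.00 and 7.39 FPKM and then 35.9, 30.3 and 60.6, a change of 2.06 ± 0.25 (adjusted p = 0.0309). In fold terms the means were 5.59 and 4.69 times the control means, both without overlap between the groups. The ratio of Tap1 to Tap2 was 1.22, 1.06 and 1.05 in the controls. In the YKL-40 libraries it was 1.31, 1.32 and 1.33, higher by 0.26 on the log2 scale.

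Tapbp, the gene of tapasin, which bridges the transporter and the heavy chain, was the steadiest member among the controls. It had 11.8, 13.2 and 13.02 FPKM there, against 36.1, 32.5 and 60.9 with YKL-40. It rose by 1.64 ± 0.22 (adjusted p = 0.0400), from 12.7 ± 0.788 to 43.2 ± 15.5 FPKM.

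Tapbpl encodes TAPBPR, a tapasin relative that exchanges peptides outside the loading complex, and was the least abundant of the 9. It had 2.46, 2.59 and 1.93 FPKM in the controls, against 4.76, 4.87 and 9.68 with YKL-40. Its change of 1.10 ± 0.25 did not pass (adjusted p = 0.0918), and log2(FPKM + 1) understates changes at such levels. The ratio of Tapbp to Tapbpl was higher by 0.54 with that scale, but by 0.35 with a pseudocount of 0.1 FPKM and 0.32 with 0.01. As a plain ratio, the controls (4.78, 5.09 and 6.73) and the YKL-40 libraries (7.59, 6.67 and 6.29) overlapped.

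**Figure D2:**
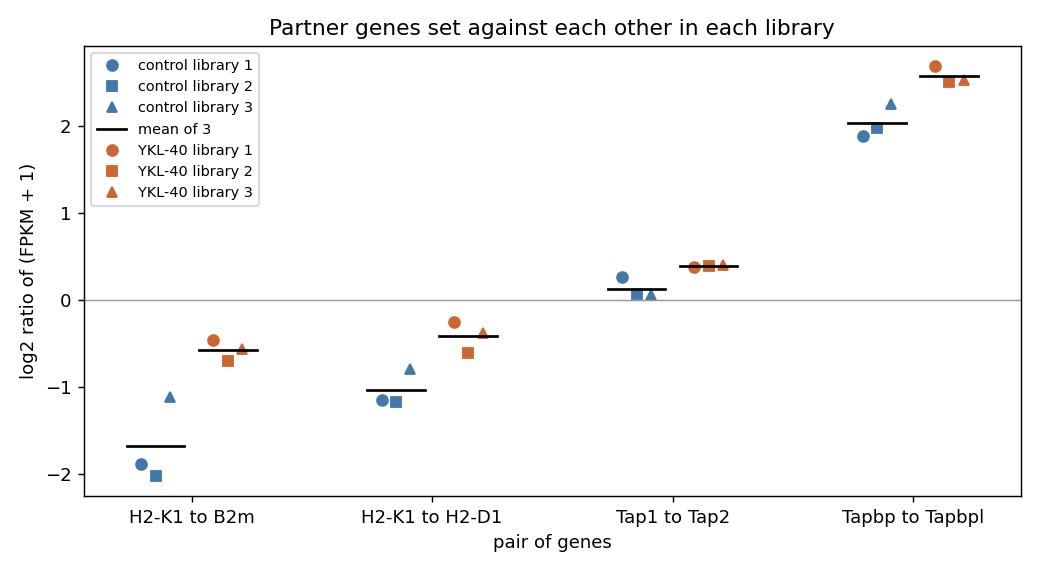
Log2 ratios of (FPKM + 1) for 4 pairs of partner genes in each library, with a bar at the mean of 3. The groups do not overlap in any of the 4 pairs on this scale, and Tap1 to Tap2 differs least, by 0.26.

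Nlrc5, the class I transactivator, had 9.49, 6.83 and 4.90 FPKM in the controls, against 15.4, 20.2 and 35.0 with YKL-40. Both groups were spread widely, with an SD of 32.5% and 43.4% of the mean. The change was 1.56 ± 0.31 and did not pass (adjusted p = 0.0845, 95% interval from 0.83 to 2.30).

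Erap1, which trims peptides to class I length, had 45.5, 41.1 and 35.5 FPKM in the controls, against 72.4, 74.2 and 144 with YKL-40. The lowest YKL-40 library was 1.59 times the highest control, the narrowest gap of the 9 genes. The change was 1.16 ± 0.26 and did not pass (adjusted p = 0.0918).

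In level per length, the order in the controls was B2m, H2-D1, H2-K1, Erap1, Tapbp, Tap1, Tap2, Nlrc5 and Tapbpl. Each gene was above the next in all 3 controls, but the ranges of B2m and H2-D1, of Tap1 and Tap2, and of Tap2 and Nlrc5 overlapped. In the YKL-40 libraries the order was the same, except that Tap1 stood above Tapbp. There the ranges of neighbours overlapped for all pairs other than H2-K1 with Erap1 and Nlrc5 with Tapbpl. The mean of B2m was 3.31 times that of H2-K1 in controls, against 1.48 times with YKL-40.

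Libraries of one group also differed, and the members varied together in this. YKL-40 library 3 was the highest of its group for all 9 genes, at 1.61 (H2-D1) to 2.01 (Tapbpl) times the mean of the other YKL-40 libraries. YKL-40 library 2 was the lowest for 6 genes and library 1 for Nlrc5, Tapbpl and Erap1. Control 3 was the lowest control for 7 genes, but H2-K1 and Tapbp were at 1.02 and 1.04 times the mean of the other controls there. Over the 36 pairs of members, Pearson's r across the 6 libraries ran from 0.919 (H2-K1 with B2m) to 0.999 (H2-D1 with Tap1). After each group's mean was taken out the median r was 0.884 and the lowest 0.597, for B2m with Tapbp. These are descriptions over 6 libraries that share the group difference.

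Outside the members, 10 genes were closest to their mean profile, by Pearson's r over the 6 libraries among 8492 genes that averaged 5 FPKM or more. They were Ifi47 (0.994), H2-DMb1 (0.993), Gbp4 (0.990), Cd274 (0.988), Lgals3bp (0.988), Fdx1, Mov10, Gm12185, Ifi203 and Irgm1, the last at 0.983. Since that profile separates the groups, a group difference in these genes follows from how they were picked and is a description only. Their changes ran from 0.31 (Fdx1) to 3.52 (Gbp4) on the log2 scale, with 2.84 for Ifi47 and 0.84 for Lgals3bp. Lgals3bp, a secreted galectin ligand, was steady within the groups, with 50.4, 47.8 and 46.7 FPKM in the controls, against 84.2, 81.6 and 97.1 with YKL-40. Fdx1, a mitochondrial electron carrier, followed the same profile at a far smaller size, with 11.8, 11.7 and 11.3 FPKM in the controls, against 14.8, 13.6 and 15.8 with YKL-40.

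Among 39 other tested genes of the class I pathway, 3 rose and 0 fell (limma, adjusted p below the same threshold), and 8 higher and 1 lower had an unadjusted p under 0.05. Over all tested genes, 0.365% rose and 0.0712% fell past the threshold, and 8.71% were higher and 9.24% lower at an unadjusted p under 0.05. The 3 pathway genes that rose were Psmb8 and Psmb9, catalytic subunits of the immunoproteasome, which cuts proteins into peptides suited to class I, and Irf1, an interferon-induced transcription factor. The median change over the 39 was 0.03. The count was 0 without control 1, control 2 or YKL-40 library 1, and 6 without YKL-40 library 2.

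All 5 immunoproteasome genes were higher in every YKL-40 library than in any control, with a median change of 1.72. Psmb8 rose from 5.30 ± 0.780 to 80.8 ± 49.0 FPKM, by 3.55 ± 0.36 on the log2 scale (adjusted p = 0.0303). Psmb9, whose gene lies beside Tap1, rose by 3.14 ± 0.32 (adjusted p = 0.0303). Both estimates lay above those of all 9 members, a difference that was not tested. Psmb10, Psme1 and Psme2 had changes of 1.72, 1.08 and 1.46 that did not pass (adjusted p from 0.0712 to 0.0845). Of the 4 constitutive proteasome genes, 0 passed and 1 had an unadjusted p under 0.05: Psmb5, the subunit that Psmb8 replaces, with a change of 0.31 (adjusted p = 0.221).

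The general chaperones of glycoprotein folding, which also fold class I heavy chains, did not pass. Of 6 tested, 0 had an unadjusted p under 0.05, and the changes ran from -0.21 (Canx) to 0.10 (Calr). Calr, calreticulin, had 606 ± 64.9 FPKM in controls, against 651 ± 47.5 with YKL-40, with a 95% interval of its change from -0.17 to 0.37. Pdia3, which joins tapasin in the loading complex, had a change of 0.03 (95% interval from -0.17 to 0.24). In other peptidases 0 of 6 passed, with 0 at an unadjusted p under 0.05 and changes from -0.23 for Lnpep, an endosomal relative of Erap1, to 0.30 for Lap3. In genes of class I turnover 0 of 5 passed, again with 0 at an unadjusted p under 0.05 and the largest change at -0.22 for Sppl2a.

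Of 13 transcription regulators, only Irf1 passed in the full data. It rose from 10.3 ± 1.35 to 48.1 ± 22.5 FPKM (2.03 ± 0.29, adjusted p = 0.0472). RFX and NF-Y proteins occupy the SXY module together with Nlrc5. Rfx5, Rfxap and Rfxank had changes of 0.20, -0.10 and -0.20. Nfya had the lowest change of the list, -0.38 (95% interval from -0.60 to -0.16), which did not pass in limma (adjusted p = 0.113). Nfya was lower in every YKL-40 library than in any control. It was the 1 pathway gene lower at an unadjusted p under 0.05. Nfkb1 and Rela, subunits of NF-kB, had changes of 0.06 each, with 95% intervals from -0.28 to 0.39 and from -0.15 to 0.27.

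**Figure D3:**
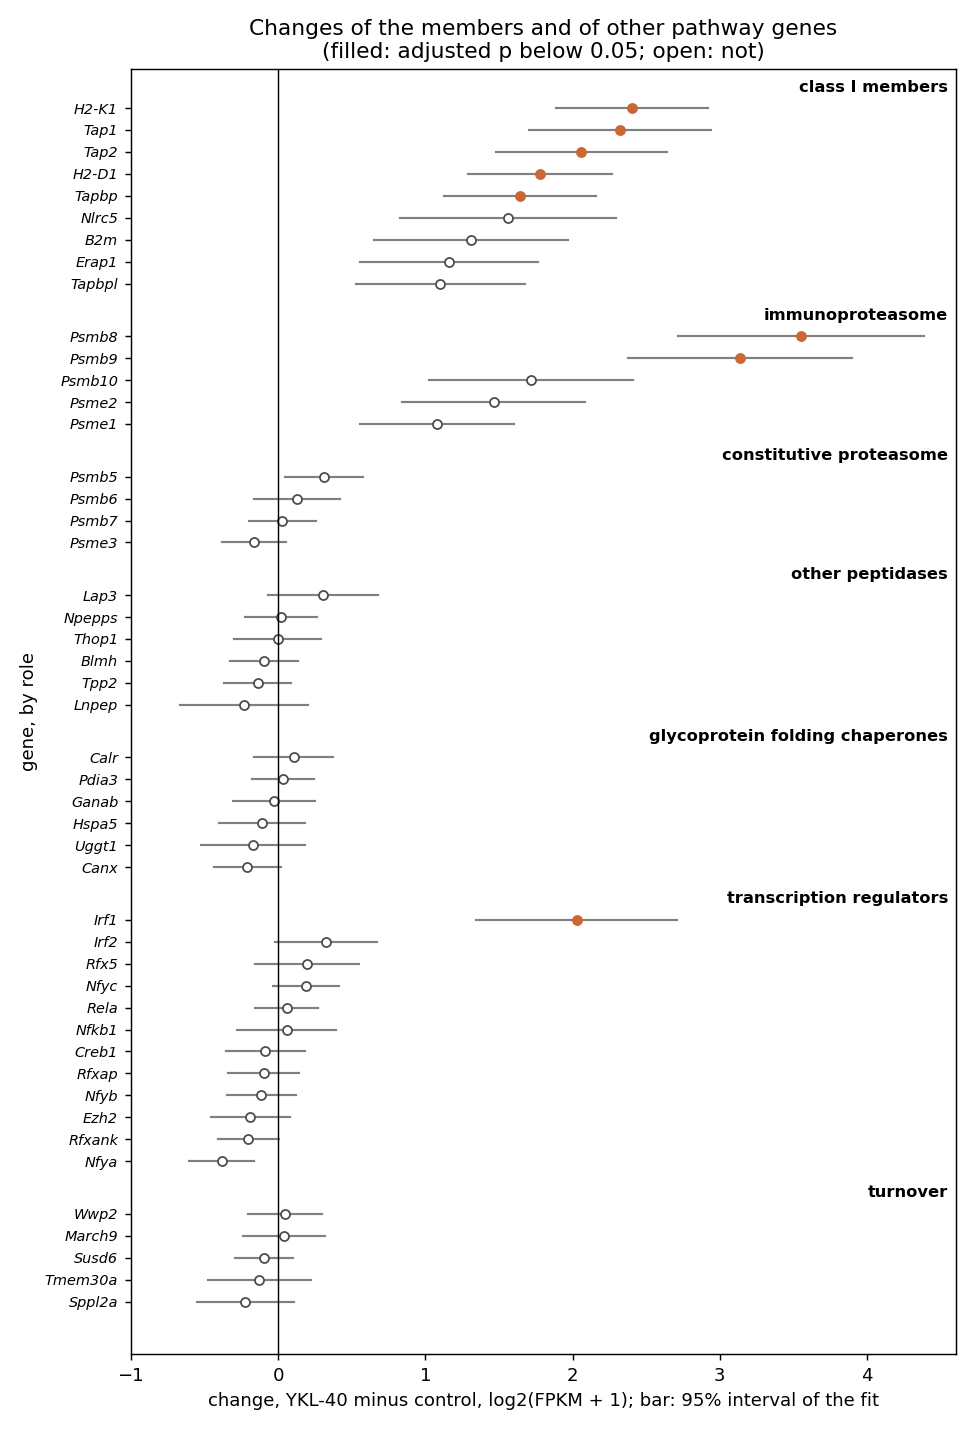
Change of each gene (YKL-40 minus control, log2 of FPKM + 1) with its 95% interval, for the 9 members and 38 of the other pathway genes by role. Filled points passed an adjusted p of 0.05: 5 members, Psmb8, Psmb9 and Irf1.

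Tumour tissue holds other cells that carry class I, and the sums of several of their marker lists differed between the groups without overlap. In bulk RNA, fewer cells of a type and less RNA per cell cannot be told apart. The 5 leukocyte markers summed to 9.09 to 31.2 FPKM in controls, against 47.5 to 83.5 with YKL-40, with 0 of 5 past the threshold and 5 at an unadjusted p under 0.05. Laptm5 was the most abundant of them. Over all tested genes, 8.71% were higher at an unadjusted p under 0.05 in limma. For 10.3% of all tested genes every YKL-40 library lay above every control. The 6 macrophage markers summed to 47.9 to 130.5 and 163.5 to 267 FPKM, led by C1qa. The 7 T cell markers summed to 1.40 to 5.55 and 8.67 to 22.6 FPKM, led by Thy1. Thy1 alone had 0.969, 2.40 and 4.35 FPKM in the controls, where the T cell sums were 1.40, 3.14 and 5.55. Of the 6 macrophage markers 0 passed, 5 had an unadjusted p under 0.05 and 3 were without overlap. All 7 T cell markers were without overlap, but only Cd8a and Thy1 were tested. Of these 2, 0 passed and 2 had an unadjusted p under 0.05 in limma. Cd8a averaged 0.145 FPKM in the controls, so it reached the filter only through the YKL-40 libraries. The 5 natural killer and cytotoxic markers summed to 0.0301 to 0.804 and 6.20 to 21.8 FPKM. Of 3 tested, 2 passed, where 0.365% of all tested genes rose past the threshold. The 3 tested, Gzmb, Prf1 and Nkg7, averaged 0.182, 0.165 and 0.0524 FPKM in the controls, so they reached the filter only through the YKL-40 libraries. The most abundant, Gzmb, was at 0 in control 1.

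Within the groups the order of the libraries differed. Among the controls, library 3 had the highest leukocyte sum and the lowest level of 7 members. Among the YKL-40 libraries, library 3 was the highest and library 2 the lowest in the leukocyte, T cell and cytotoxic sums (leukocytes 77.3, 47.5 and 83.5 FPKM). Other lists had another order. The macrophage sum was lowest in library 1 (163.5, 210.3 and 267 FPKM), and the dendritic cell sum was highest there (12.2, 6.25 and 11.4 FPKM). For the members, library 3 was the highest for all 9 and library 2 the lowest for 6. The 6 dendritic cell markers, led by Itgax, summed to 2.14 to 4.69 FPKM in controls, against 6.25 to 12.2 with YKL-40. For 5 of the 6 every YKL-40 library lay above every control, as for 10.3% of all tested genes. Only 2 were tested and 0 passed in limma, Itgax with a change of 0.97 (adjusted p = 0.142) and Zbtb46 with 0.003 (adjusted p = 0.993). The B cell, endothelial and melanocyte sums overlapped between the groups, and so did the fibroblast sum (15.8 to 156 against 139 to 251.0 FPKM). These lists were led by Cd79a, Pecam1, Pmel and Col1a1 in turn. The overlap of a sum does not mean that its markers were alike. Of the 7 melanocyte and 4 endothelial markers 0 passed in limma. In each of these lists 1 marker, Pmel and Tek in turn, had every YKL-40 library above every control. Over all tested genes 10.3% had this. Pmel had 3656 to 3890 FPKM in controls, against 4049 to 5461 with YKL-40. Of the 5 fibroblast markers 0 passed. All 5 were higher at an unadjusted p under 0.05 in limma, where 8.71% of all tested genes were. For 3 of the fibroblast markers every YKL-40 library lay above every control, as for 10.3% of all tested genes. The 3 keratinocyte markers were near 0, with at most 0.119 FPKM for their sum (Krt10), and Krt14 was at 0 in all 6 libraries.

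The 9 skeletal muscle markers were higher in the controls, with sums of 35.4 to 152 FPKM there against 3.19 to 23.3 with YKL-40, with Tnnt3 the most abundant. Among 8 tested ones limma passed 0. At an unadjusted p under 0.05, 7 were lower, where 9.24% of all tested genes were. Myh4, Myh1, Actn3 and Atp2a1 averaged 0.248, 0.653, 0.244 and 0.461 FPKM with YKL-40. They reached the filter only through the controls. Control 3 had the highest muscle sum and YKL-40 library 3 the lowest. With this list's level as a covariate in limma the changes were 2.02 for H2-K1, 1.57 for Tap1 and 0.39 for B2m. In that fit 0 of 9 members passed (lowest adjusted p = 0.890), as did 0 of all 11241 tested genes. Since the muscle sums did not overlap between the groups, the muscle level and the group cannot be told apart with 6 libraries. What part these cells had in the members' levels was not tested.

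**Figure D4:**
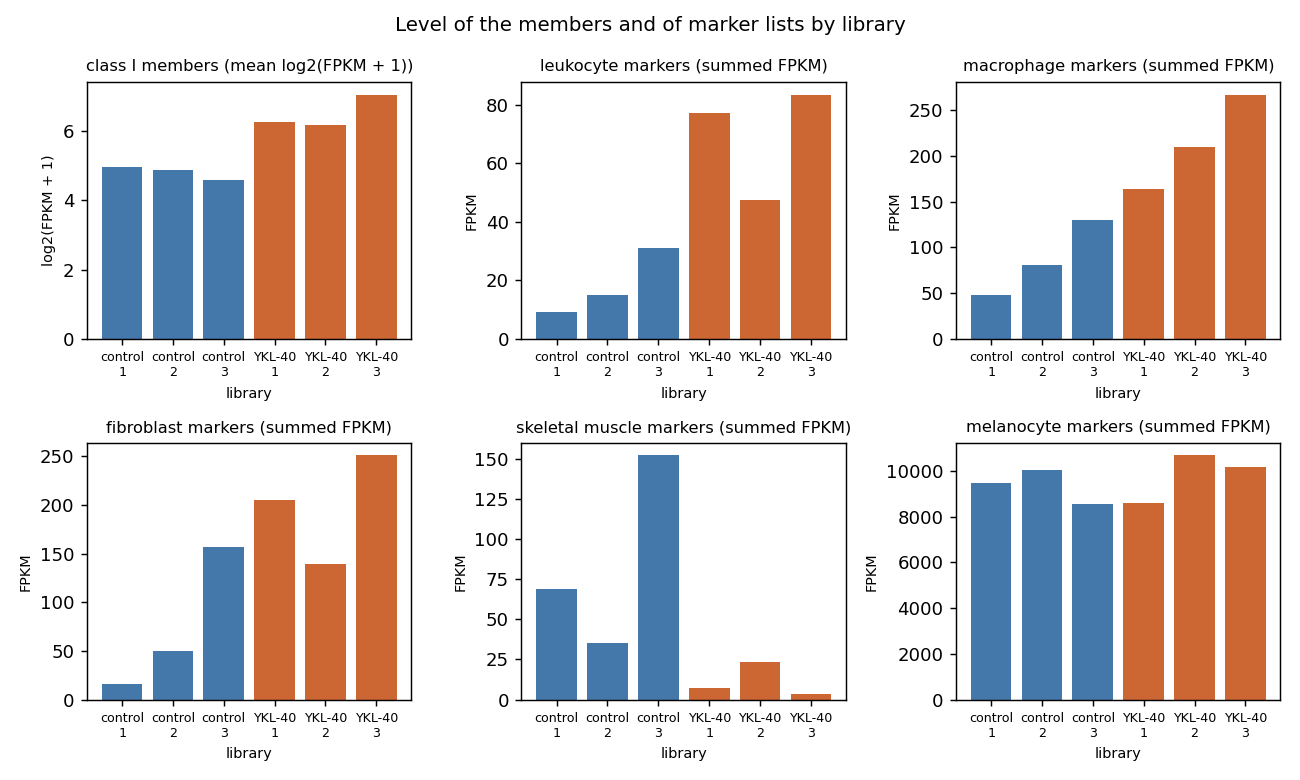
Mean log2(FPKM + 1) of the 9 members and summed FPKM of 5 marker lists in each library. The leukocyte and macrophage sums are higher and the skeletal muscle sum lower in every YKL-40 library, while melanocyte sums overlap between the groups.

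**Figure D5:**
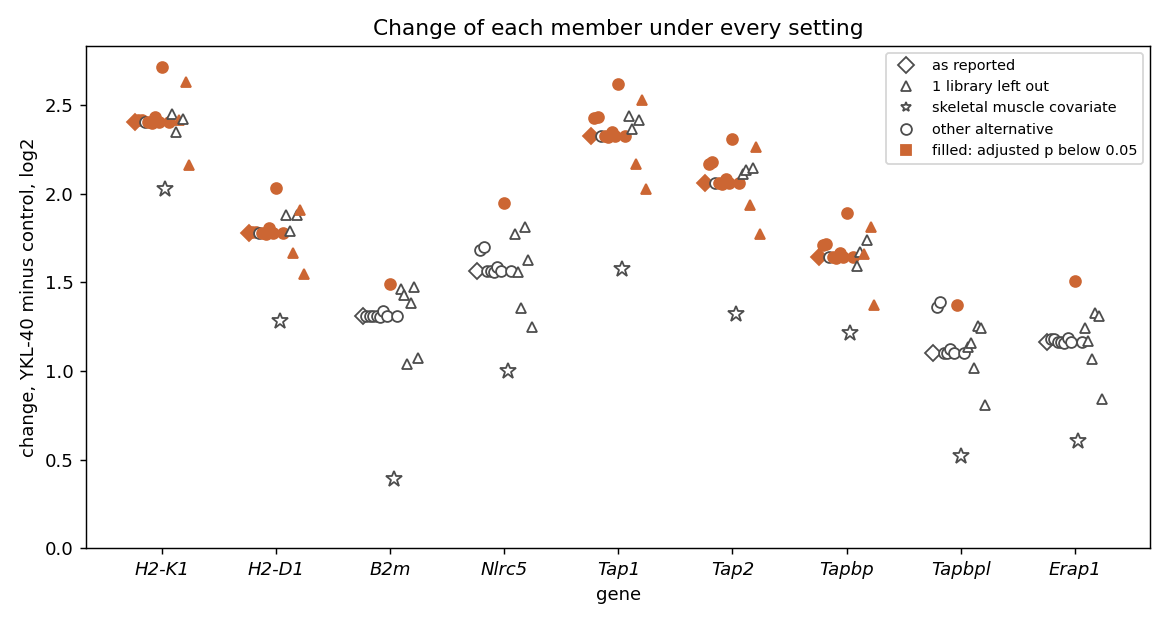
Change of each member (YKL-40 minus control, log2) as reported and under 16 alternatives, filled where the adjusted p was below 0.05. All values lie above 0, and H2-K1, H2-D1, Tap1, Tap2 and Tapbp are filled in 11 of the 16.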

How the data were processed

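Bulk RNA of 6 tumours was sequenced, with libraries made from 2 µg of RNA, per the labels' protocols. The authors deposited 1 FPKM value per gene and library. Build mm10 and the tools HISAT2, StringTie, DESeq2, limma and bcl2fastq 2.0 are listed, with no roles, per the submitters' processing notes. The annotation, read length and depth are not given in the sources used here. The named kit keeps no strand.

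Values were used as log2(FPKM + 1). Genes averaging 1 FPKM or more were fitted with limma 3.58.1 in R 4.3.3 with a variance trend, two-sided, with Benjamini-Hochberg adjustment over all tested genes and a threshold of 0.05. The procedure was tested on simulated data with noise drawn independently for each gene. The members here varied together, so that test does not cover calls on genes that do so. Relative depth is the most common ratio to the first control among genes below 0.3 FPKM in every library, with ratios far from 1 left out. Ratios of partners were tested by exact permutation. Sequences and positions came from RefSeq (GRCm38.p6, the assembly of mm10) and transcripts from GENCODE M21.

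The members and lists were chosen with earlier results of these data known. Named were all members, pathway genes past the threshold or of largest change per role, the 10 genes of most similar profile, and the most abundant marker per list. Of the pathway genes tested, 1 counted in the totals is not reported here. Any other gene was picked with its values in view.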

Additional observations from a re-analysis of the deposited data

How the results depend on the processing

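The fit was repeated with 16 alternatives, and the ratios of partners with the 8 of these on pseudocounts and single libraries; no change of a member and no ratio reversed. H2-K1, H2-D1, Tap1, Tap2 and Tapbp each passed in 11 of the 16, and B2m, Nlrc5, Tapbpl and Erap1 only with array quality weights. Tapbpl did not reach the filter at a mean of 5 FPKM. Without a filter 1 gene passed in all (2694 at an unadjusted p under 0.05 in limma, among 16417 tested), with 0 members (9 at an unadjusted p under 0.05, lowest adjusted p = 0.106) and 0 other pathway genes (10). With array quality weights 1111 genes, 9 members and 8 other pathway genes passed. With the skeletal muscle covariate 0 genes (537 at an unadjusted p under 0.05), 0 members (5) and 0 other pathway genes (3) passed, and the members' median change was 1.21. That covariate and the group cannot be told apart here, as stated above. Leaving out 1 library gave 0 to 238 genes, 0 to 5 members, 0 to 6 other pathway genes and median changes from 1.37 to 1.81, against 49, 5, 3 and 1.64 with all libraries. Where 0 members passed, without control 1, control 2 or YKL-40 library 1, all 9 had an unadjusted p under 0.05 and the lowest adjusted p was 0.0931 to 0.0954. The cause was not tested. The groups share replicate numbers, but libraries of the same number did not deviate together (r of -0.083, -0.185 and 0.0017), so the numbers were not taken as pairs. With a replicate block 120 genes, 5 members and 4 other pathway genes passed. Read totals are unknown, so no counting interval could be given.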

Other observations

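H2-M3, a non-classical class I heavy chain and not one of the 9 genes, was chosen after its values were seen because its promoter window also holds TGACG and ATTGG with 20 bases between them. It had 2.82 FPKM as the mean of the controls and 9.07 as that of the YKL-40 libraries, a change of 1.31 on the log2 scale that did not pass (limma, adjusted p = 0.0862). Among the 18 tested genes with that spacing, the largest changes were those of H2-K1, H2-D1, H2-M3 and B2m, from 1.31 to 2.40, and the next was 0.41, for Znrd1. The other 14 ran from -0.47 (Per1) to 0.41. No test was made on this list, which was formed from the sequences of the members.

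The level of B2m was also set against the sum of H2-K1 and H2-D1, a ratio chosen after the data were seen. It was 1.15, 1.25 and 0.794 in the controls, against 0.630, 0.646 and 0.643 with YKL-40, so that the YKL-40 libraries lay within a narrow band below every control (exact two-sided permutation p = 0.1, the smallest that 3 against 3 libraries allow).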
